A study of Mus musculus with 15 samples.

Results

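The Slc25a genes encode the mitochondrial carriers, the proteins of the inner mitochondrial membrane that exchange ATP, phosphate, fuels, amino acids and cofactors between the cytosol and the matrix. Each gene whose symbol was Slc25a followed by a number, and whose expected counts summed to at least 10 over all libraries, was taken as a member, which gave 44 members of 47 such symbols and of 26862 genes tested. Slc25a41, Slc25a48 and Slc25a54 were left out, with summed counts of 0, 3 and 4. Hearts came from 12-week-old male C57BL6 mice that received saline (4 hearts) or isoproterenol under the skin, 50 mg/kg each day, for 4 days (4 hearts), 8 days (3 hearts) or 11 days (4 hearts). The paper gives the saline period only as similar, and the days of each saline heart are not stated, so the same saline group served every time. The study excluded a further 8-day replicate because of its quality. Isoproterenol stimulates β-adrenergic receptors, and the series followed the heart as it enlarges and scars under this agonist. All groups shared the strain, sex and age, and libraries are called by group and letter.

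A carrier is a single chain that moves its substrate across the membrane, usually against a substrate moving the other way, and the family is built from a repeated module that spans the membrane in pairs of helices. The heart runs mostly on fatty acids and returns ATP to the sarcomeres at a high rate, so its best known carriers are the ADP/ATP carriers, the phosphate carrier and the carnitine-acylcarnitine carrier. The malate-aspartate shuttle, which brings reducing equivalents of glycolysis into the matrix, uses an oxoglutarate carrier and an aspartate-glutamate carrier. The ADP/ATP carrier Slc25a4 is the form of heart and skeletal muscle, while Slc25a5 is the form of most other and dividing cells.

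Libraries of total RNA held 25.4M to 117.8M counts (median 46.6M), of which genes of the mitochondrial genome made up 47.5 to 58.4%. In 8-day A, 15.8% of counts fell on CT010467.1 and Lars2, which reached no more than 0.092% elsewhere. Members took 0.37% of the counts of nuclear genes in 8-day A and 0.487 to 0.646% in the others. Levels of 1 member across libraries are given as CPM (counts scaled to a common library size by TMM), and levels compared between members in FPKM, which divides by length. Groups were compared by edgeR's quasi-likelihood test over all 26862 genes, a gene is called at an adjusted p under 0.05, and changes are log2 fold changes with their standard error (SE). In heart tissue, fewer cells of a type and less RNA per cell cannot be told apart. The 15 cardiomyocyte markers summed to 71090 to 78930 CPM in saline, 69780 to 78530 at 4 days, 73070 to 78200 at 8 days and 75280 to 82410 at 11 days, and no marker of the list was at 0 throughout. Of these markers edgeR called 3 lower and 2 higher at 4 days, 1 lower at 8 and at 11 days, and 4 higher and 3 lower at 11 against 4 days, and their part in the values of the carriers was not tested.

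The heart's carrier RNA was dominated by a few members. In saline, Slc25a4 stood first at 926 ± 80.4 FPKM (SD, n = 4) and made up 55.3% of the summed FPKM of the members. Slc25a3, the carrier that brings phosphate into the matrix, followed at 336 ± 21.7 FPKM. Slc25a11, the oxoglutarate-malate carrier, came next at 103 ± 10.8 FPKM, ahead of Slc25a5 at 55.0 ± 5.1 FPKM and Slc25a20, the carnitine-acylcarnitine carrier, at 40.1 ± 6.13 FPKM. These 5 members held their place in each of the 4 saline libraries, none overlapped the next in its range, and together they made up 87.2% of the summed FPKM.

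Slc25a12 and Slc25a34 came next at 30.4 ± 3.09 and 28.8 ± 5.46 FPKM, and their ranges overlapped. Slc25a13 stood at 24.2 ± 1.37 FPKM and Slc25a39, which is needed for glutathione in mitochondria, at 18.9 ± 2.36 FPKM. Below them the order was less firm, since only 8 of the 43 neighbouring pairs in the whole order had ranges that did not overlap. In total 3 members lay above 100 FPKM, 8 between 10 and 100, 23 between 1 and 10, and 10 at 1 or below. The lowest was Slc25a21, the oxoadipate carrier, with a summed count of 13 over all libraries. With the median in place of the mean, 33 of the 44 members kept their rank.

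**Figure D1:**
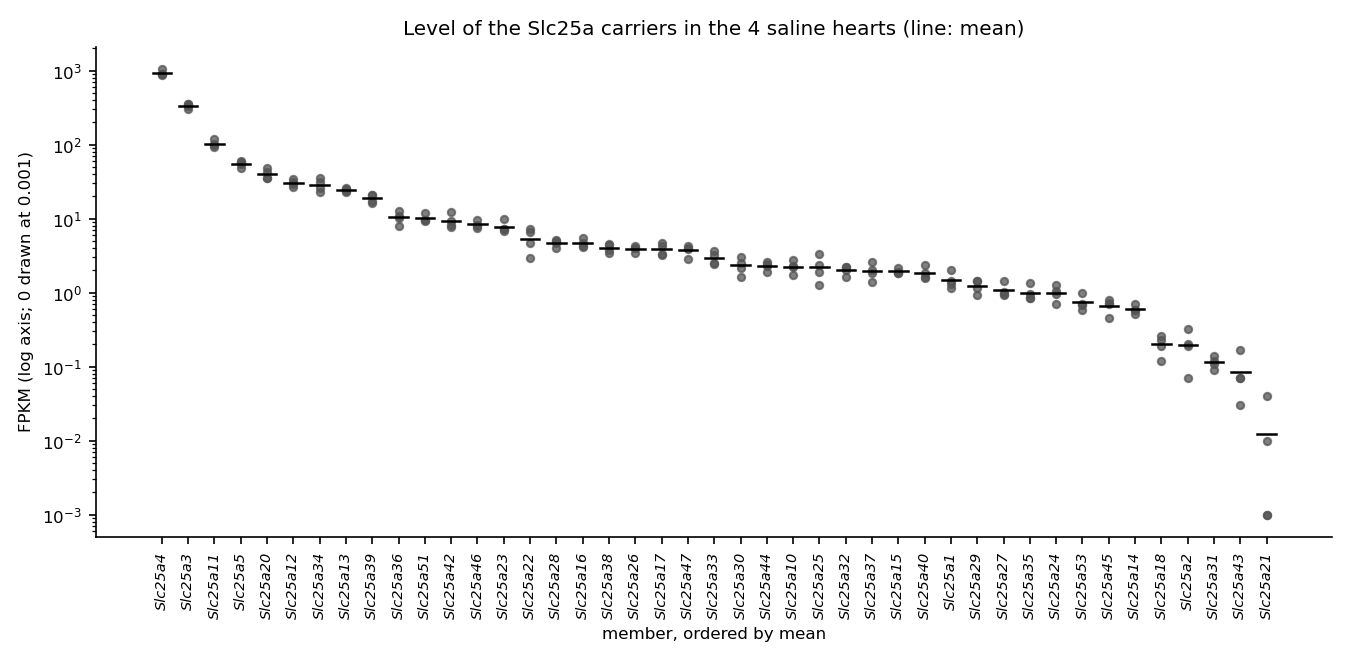
FPKM of 43 Slc25a members in the 4 saline hearts on a log axis, 1 point a library with the mean as a line, ordered by the mean. The first 5 members do not overlap their neighbours, from Slc25a4 at 926 FPKM to Slc25a20 at 40.1 FPKM, and of the members below 1 FPKM Slc25a21 has values of 0, drawn at the bottom of the axis.

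Summed over all members, the level ran from 2612 to 3226 CPM in saline, 2139 to 2848 CPM at 4 days, 2401 to 2660 CPM at 8 days and 2770 to 3166 CPM at 11 days. Without Slc25a4 the sums were 1082 to 1329, 1025 to 1228, 1082 to 1146 and 1159 to 1237 CPM in the same order. The ranges of the treated groups overlapped that of saline in both sums.

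The sequences shown first lie upstream of the 3 members that were lower at both 4 and 8 days, Slc25a34, Slc25a42 and Slc25a20. Each run is 200 bases of the RefSeq promoter table (GRCm38.p6), 5′ to 3′ on the strand of the gene, and covers bases 250 to 51 before the start site. Capitals mark a GC box, the letters GGGCGG or their reverse complement CCGCCC. The Slc25a34 run lies at chr4:141623885-141624084 on the minus strand, the Slc25a42 run at chr8:70212332-70212531 on the minus strand, and the Slc25a20 run at chr9:108661886-108662085 on the plus strand. None overlapped an exon of GENCODE M21.
Slc25a34: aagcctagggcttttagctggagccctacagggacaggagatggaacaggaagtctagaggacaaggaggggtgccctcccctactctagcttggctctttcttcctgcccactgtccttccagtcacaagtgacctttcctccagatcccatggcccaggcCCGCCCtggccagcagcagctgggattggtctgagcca
Slc25a42: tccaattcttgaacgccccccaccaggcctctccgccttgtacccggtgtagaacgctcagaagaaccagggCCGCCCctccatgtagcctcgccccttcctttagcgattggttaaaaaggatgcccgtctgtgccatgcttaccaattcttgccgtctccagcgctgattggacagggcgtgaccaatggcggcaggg
Slc25a20: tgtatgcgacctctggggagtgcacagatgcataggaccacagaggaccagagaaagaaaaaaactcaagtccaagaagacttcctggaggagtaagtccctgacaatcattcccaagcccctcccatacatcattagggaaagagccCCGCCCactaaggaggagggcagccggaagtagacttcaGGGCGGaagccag

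The table held 44 windows of 300 bases for 34 of the 44 members, and 5 motifs were searched in them on both strands. The GC box was in 37 of these windows, 84.1%, and in 35.7% of all 32851 windows. Members had passed a filter on counts and some have several windows, whereas all windows were taken without that filter. The 2 shares are thus of unlike sets, and the difference is not read as a trait of the carriers. The letters TCAAGGTCA, bound by estrogen-related receptors, were in 0 of the member windows and 0.423% of all windows. The direct repeat 1 element, bound by PPAR with RXR, was in 0 of them and 0.0396% of all. The NRF1 motif was in 2 of them (Slc25a3 and Slc25a31) and 4.6% of all, and the ETS letters CCGGAAGT in 1 (Slc25a20) and 3.89% of all. The estrogen-related receptor letters and the direct repeat 1 are rare over all windows. Finding 0 in 44 windows was therefore likely in advance, and nothing is read from it. A match is a description of the letters and not a binding site.

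After 4 days, single members of several substrate classes differed from saline. Slc25a34, Slc25a42, Slc25a22, Slc25a20, Slc25a26 and Slc25a16 were lower, and Slc25a1, Slc25a24 and Slc25a30 were higher. Of the 44 members, 6 were called lower (13.6%) and 3 higher (6.82%), where 3.41% of all genes tested were called lower and 6.04% higher (9.45% in all). Among the genes that passed filterByExpr, edgeR's filter on low counts, 6 of 42 members were lower and 3 higher, beside 5.68% and 9.15% of all. The members' median was -0.05 and that of all genes 0.01 on the log2 scale. All 4-day libraries lay below all saline libraries in 7 members and above them in 5, beside 5.66% and 8.01% of all genes.

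After 8 days 3 members were lower and 0 higher, where 1.2% of all genes were called lower and 1.07% higher (2.27% in all). The unadjusted p of edgeR was under 0.05 for 4 members on the higher side and 7 on the lower side, where 13% of all genes had such a p in either direction. DESeq2 and limma voom also called 0 members higher. Without 8-day A the 3 lower calls held, with -0.90 for Slc25a34, -0.81 for Slc25a42 and -0.61 for Slc25a20 (edgeR adjusted p = 0.00916, 0.0257 and 0.0466). After 11 days 4 members were lower and 2 higher, where 1.95% of all genes were called lower and 1.8% higher (3.75% in all). Among genes passing filterByExpr, 3 of 40 members were lower at 8 days and 4 of 42 at 11 days, beside 1.72% and 3.17% of all, and 0 and 2 were higher, beside 1.7% and 2.91%. Groups did not overlap in 5 higher and 4 lower members at 8 days, beside 6.88% and 5.97% of all genes, and in 5 and 4 at 11 days, beside 5.85% and 4.77%. The members' medians were -0.08 at 8 days and 0.04 at 11 days, and those of all genes -0.01 at both. These comparisons share the saline libraries. Among the 44 members, 2 were called at all 3 times (Slc25a34 and Slc25a42), 2 at 2 times (Slc25a20 and Slc25a22), 8 at 1 time and 32 at none. The same count was not made over all genes, so these numbers describe the members alone.

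**Figure D2:**
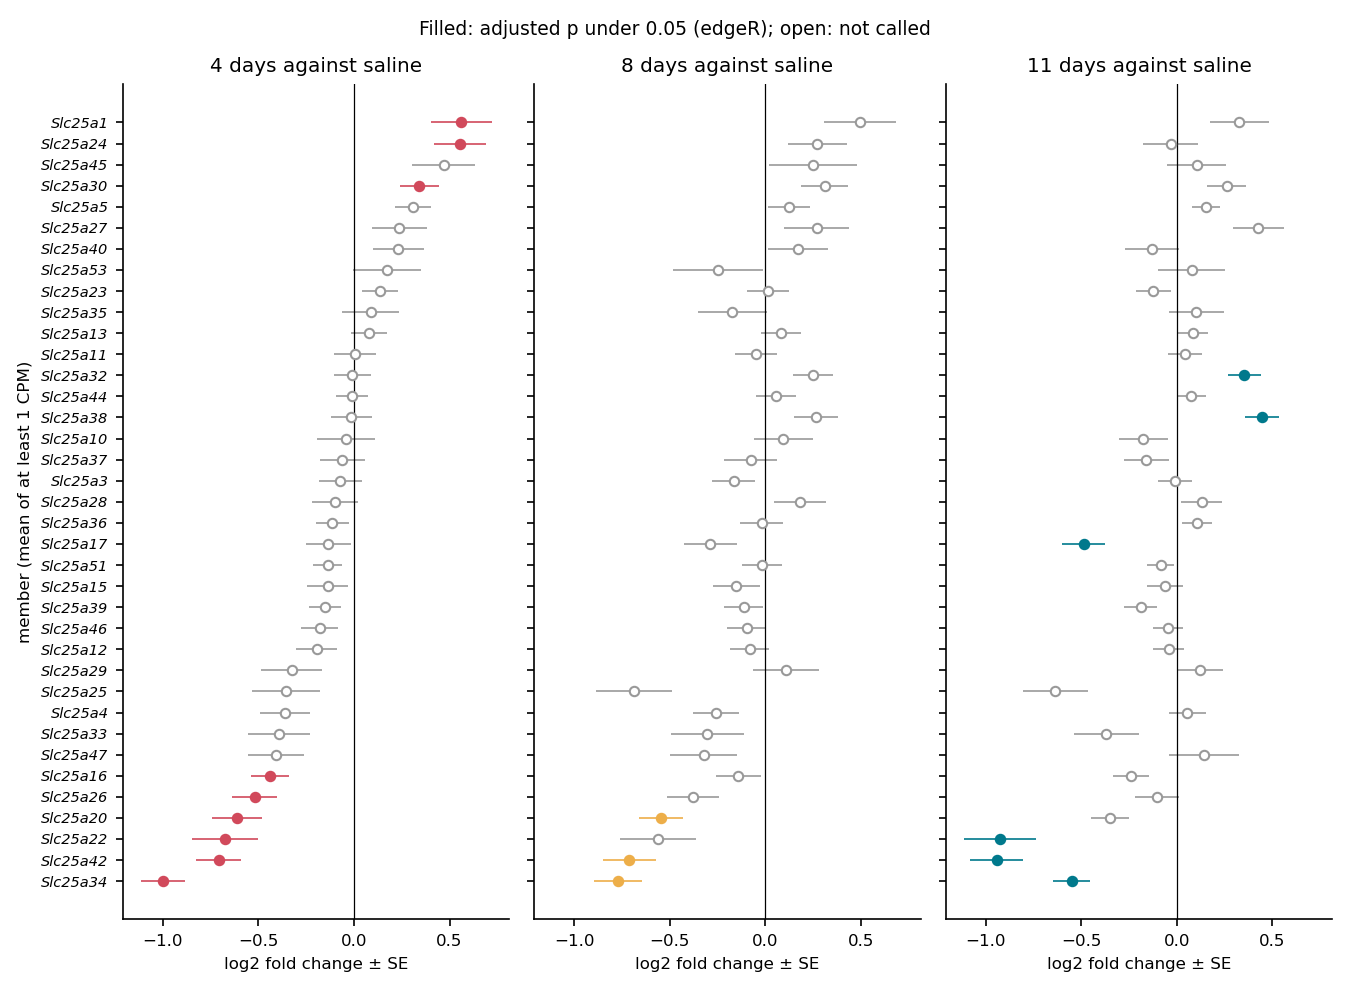
Log2 fold change against saline (x axis) with its SE for 37 members with a mean of at least 1 CPM, ordered by the change at 4 days, with 1 panel for each time. Filled points passed an adjusted p of 0.05 in edgeR. Slc25a34 and Slc25a42 are filled on the lower side in all 3 panels, and most members stay within 0.5 of no change.

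Among members without a settled substrate, Slc25a34 showed the lowest change of the family at 4 days. This gene (ENSMUSG00000040740.7, chr4:141618824-141623821, minus strand) encodes an orphan carrier. It measured 87.6, 62.1, 78.2 and 70.1 CPM in saline A to D. It measured 32.5, 43.3, 36.6 and 36.3 CPM in 4-day A to D.

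At 8 days Slc25a34 stood at 50.0, 42.3 and 39.0 CPM, and at 11 days at 53.3, 53.4, 48.5 and 49.6 CPM. Every treated library lay below every saline library. The changes were -1.0 ± 0.12 at 4 days (edgeR adjusted p = 0.000341), -0.77 ± 0.13 at 8 days (edgeR adjusted p = 0.00543) and -0.55 ± 0.10 at 11 days (edgeR adjusted p = 0.00678). All 3 calls held in each alternative and without each library in turn. Between 4 and 11 days the gene rose by 0.46 ± 0.08 (edgeR adjusted p = 0.00387), and the groups did not overlap.

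Of the other 6 tested members in this class, none was called against saline by edgeR, and limma voom called Slc25a47 lower at 4 days. They were Slc25a35, Slc25a43, Slc25a45, Slc25a46 (a protein of the outer membrane), Slc25a47 and Slc25a53. Slc25a35 shared 31.3% of its exon bases with Rangrf on the opposite strand.

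Among carriers of nucleotides and cofactors, Slc25a42, which carries coenzyme A into the matrix, was lower at all times. The gene (ENSMUSG00000002346.16) lies at chr8:70184340-70212305 on the minus strand. It measured 24.2, 20.8, 32.6 and 25.5 CPM in saline A to D, and 16.8, 15.3, 16.2 and 14.8 CPM in 4-day A to D. At 8 days it measured 17.4, 14.9 and 15.1 CPM, and at 11 days 13.3, 11.7, 12.1 and 16.8 CPM.

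No treated library of Slc25a42 reached the lowest saline library. The changes were -0.71 ± 0.12 at 4 days (edgeR adjusted p = 0.00223), -0.71 ± 0.14 at 8 days (edgeR adjusted p = 0.015) and -0.94 ± 0.14 at 11 days (edgeR adjusted p = 0.00209). The calls at 4 and 11 days held in each alternative and without each library. That at 8 days was lost without 8-day B (edgeR adjusted p = 0.0623) or 8-day C (edgeR adjusted p = 0.0838).

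The class held 11 members, of which 3 were lower at 4 days, 1 at 8 days, and 2 lower and 1 higher at 11 days. Of all genes 3.41% were called lower at 4 days, 1.2% at 8 days and 1.95% at 11 days, and 1.8% higher at 11 days. The class was not tested as a set. Besides Slc25a42, Slc25a26, the S-adenosylmethionine carrier, was lower at 4 days by -0.52 ± 0.12 (edgeR adjusted p = 0.0135). Slc25a16, linked to the supply of coenzyme A, was lower at 4 days by -0.44 ± 0.10 (edgeR adjusted p = 0.0141). Both calls were lost with library size as the only scaling (edgeR adjusted p = 0.156 and 0.237), without saline A (0.0548 and 0.0523) and without 4-day A (0.0544 and 0.0543). Slc25a26 shared 3.0% of its exon bases with Lrig1 on the opposite strand.

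At 11 days Slc25a17, the peroxisomal carrier of coenzyme A, FAD and NAD, was lower by -0.49 ± 0.11 (edgeR adjusted p = 0.0273). It measured 4.26 to 5.59 CPM in saline and 3.36 to 3.82 CPM at 11 days, with no overlap. Leaving out saline A, saline D or any 11-day library ended the call (edgeR adjusted p = 0.0582 to 0.0912). The call was also lost with limma voom (adjusted p = 0.0587), library size as the only scaling (edgeR adjusted p = 0.138) and effective lengths as offsets (0.109). Slc25a32, which carries folate and FAD, was higher at 11 days by 0.35 ± 0.09 (edgeR adjusted p = 0.038). It ran from 8.56 to 10.6 CPM in saline and from 11.1 to 12.9 CPM at 11 days. Leaving out saline A, saline C or 11-day A, B or C ended this call (edgeR adjusted p = 0.0718 to 0.122). So did effective lengths as offsets (edgeR adjusted p = 0.283) and the replicate letter as a block (0.062).

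Of the other members of this class, Slc25a33 (pyrimidine nucleotides), Slc25a39, Slc25a40 and Slc25a51 (NAD) were called by edgeR in no comparison. Slc25a36, another carrier of pyrimidine nucleotides, was called between 4 and 11 days alone.

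Slc25a20 was the member of the carnitine and amino acid class that fell. The carrier exchanges acylcarnitines for free carnitine across the inner membrane, the step between the 2 carnitine palmitoyltransferases. Slc25a20 (ENSMUSG00000032602.6, chr9:108662088-108684641, plus strand) measured 77.5, 55.1, 67.6 and 69.1 CPM in saline A to D. At 4 days it measured 40.3, 54.7, 36.1 and 44.7 CPM.

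At 8 days Slc25a20 stood at 49.2, 45.8 and 43.7 CPM and at 11 days at 54.7, 51.9, 47.2 and 58.4 CPM. The 4-day and 8-day libraries lay below all saline libraries, while 11-day D overlapped saline B. The changes were -0.61 ± 0.13 at 4 days (edgeR adjusted p = 0.00913) and -0.55 ± 0.11 at 8 days (edgeR adjusted p = 0.0226). At 11 days the value was -0.35 ± 0.10, which did not pass (edgeR adjusted p = 0.0746), although without saline B it was -0.43 (edgeR adjusted p = 0.0105) and DESeq2 called it (adjusted p = 0.0176). The 4-day call held without each library, and the 8-day call was lost without saline A, 8-day B or 8-day C (edgeR adjusted p = 0.0741 to 0.122), with both scalings by library size (0.164, and 0.057 without the genes of the mitochondrial genome) and with effective lengths as offsets (0.0562).

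Several other genes of the carnitine shuttle were lower beside it. Of the 7 genes listed, 5 were lower and 1 higher at 4 days, and 4 were lower at each of 8 and 11 days. Of all genes 3.41% were called lower and 6.04% higher at 4 days, and 1.2% and 1.95% lower at 8 and 11 days. Cpt2, the inner carnitine palmitoyltransferase, changed by -0.81 ± 0.11, -0.77 ± 0.11 and -0.68 ± 0.09 (edgeR adjusted p = 0.000866, 0.00215 and 0.00149). Cpt1a, a form of the outer transferase, changed by -0.67 ± 0.13, -0.70 ± 0.15 and -0.88 ± 0.13, and Crat, carnitine acetyltransferase, by -0.59 ± 0.11, -0.57 ± 0.12 and -0.46 ± 0.10, and both were called at all 3 times. Cpt1b, the muscle form of the outer transferase, was lower at 4 and 11 days, by -0.63 ± 0.12 and -0.51 ± 0.11, and missed the threshold at 8 days (edgeR adjusted p = 0.0506). The list's medians were -0.59, -0.56 and -0.46.

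Of the other members of this class, Slc25a38, the glycine carrier that serves haem synthesis, was higher at 11 days by 0.45 ± 0.09 (edgeR adjusted p = 0.0134). It ran from 5.53 to 6.53 CPM in saline, 5.1 to 6.42 CPM at 4 days, 6.89 to 7.91 CPM at 8 days and 7.89 to 8.85 CPM at 11 days. The 8-day and 11-day libraries all lay above the saline libraries. The call held without each library and was lost with effective lengths as offsets (edgeR adjusted p = 0.0742). The 10 erythroid and blood markers summed to 107 to 577 CPM in saline and 64.1 to 202 CPM at 11 days. Of these 10, 2 were called lower and 0 higher at 11 days, beside 1.95% and 1.8% of all genes. Slc25a2 and Slc25a15 (ornithine), Slc25a29 (basic amino acids) and Slc25a44 (branched-chain amino acids) were not called by edgeR.

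**Figure D3:**
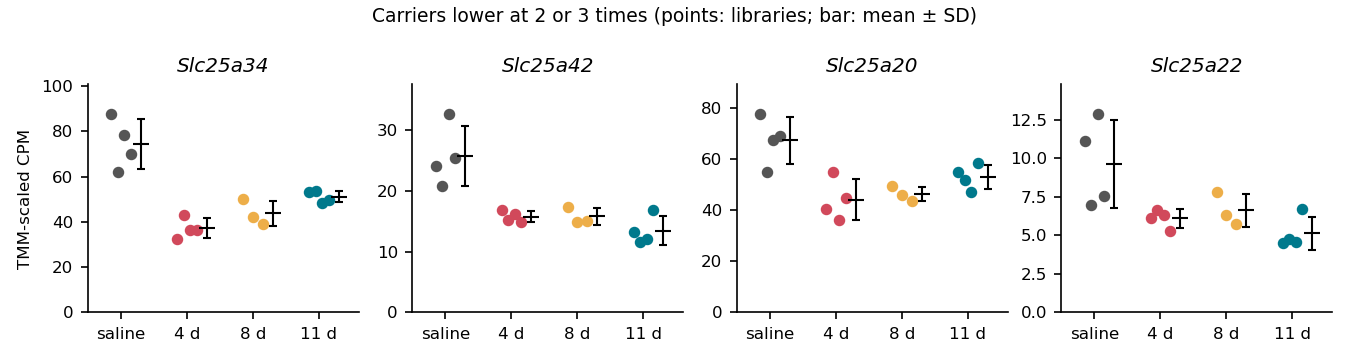
TMM-scaled CPM of Slc25a34, Slc25a42, Slc25a20 and Slc25a22 in every library, with the mean and SD of each group as a bar beside its points. In Slc25a34 and Slc25a42 no treated library reaches the lowest saline library, whereas in Slc25a20 11-day D and in Slc25a22 8-day A lie within the saline range.

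Among carriers of glutamate and aspartate, Slc25a22, which carries glutamate with a proton, was lower at 4 and 11 days. Slc25a22 (ENSMUSG00000019082.18, chr7:141429744-141437892, minus strand) measured 11.1, 6.97, 12.9 and 7.56 CPM in saline A to D. It measured 6.1, 6.68, 6.34 and 5.27 CPM at 4 days, 7.84, 6.3 and 5.74 CPM at 8 days, and 4.48, 4.74, 4.59 and 6.74 CPM at 11 days. The saline libraries spread widely, from 6.97 to 12.9 CPM, and lay above all 4-day and 11-day libraries.

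The changes of Slc25a22 were -0.67 ± 0.17 at 4 days (edgeR adjusted p = 0.024) and -0.93 ± 0.19 at 11 days (edgeR adjusted p = 0.0155). The value at 8 days was -0.56 ± 0.20 (edgeR adjusted p = 0.209), and -0.69 without saline B (edgeR adjusted p = 0.0475). At 4 days leaving out saline A, saline C or 4-day A, C or D ended the call (edgeR adjusted p = 0.0504 to 0.0813), and at 11 days without 11-day A, B or C (edgeR adjusted p = 0.0513 to 0.0546). Other settings ended these calls too, at 4 days library size as the only scaling (-0.47, edgeR adjusted p = 0.134) and effective lengths as offsets (0.0868), and at 11 days effective lengths (0.139) and robust dispersions (0.0769). Slc25a12 and Slc25a13, the calcium-regulated aspartate-glutamate carriers, and Slc25a18 were not called. The 4 listed enzymes of the malate-aspartate shuttle were called at no time (0 of 4 by edgeR).

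The adenine nucleotide and phosphate carriers hold most of the family's RNA, and 0 of these 4 members were called against saline by edgeR. Slc25a4 (ENSMUSG00000031633.4, chr8:46206797-46211284, minus strand) measured 1831, 1530, 1493 and 1898 CPM in saline A to D. It measured 1152, 1620, 1114 and 1353 CPM in 4-day A to D. At 8 days it measured 1411, 1515 and 1319 CPM and at 11 days 1929, 1719, 1611 and 1793 CPM.

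In Slc25a4, 3 of the 4 4-day libraries lay below all saline libraries, and 4-day B lay within the saline range. The value at 4 days was -0.36 ± 0.13 (edgeR adjusted p = 0.107), and -0.48 without 4-day B (edgeR adjusted p = 0.0204). DESeq2 called it (adjusted p = 0.0455). At 8 days the value was -0.26 ± 0.12 and at 11 days 0.06 ± 0.10, neither of them called.

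Slc25a5 measured 57.7, 59.6, 62.3 and 62.6 CPM in saline A to D and 75.8, 75.6, 62.8 and 85.0 CPM in 4-day A to D. At 8 days it stood at 78.1, 58.2 and 62.0 CPM, and at 11 days at 75.7, 65.2, 64.9 and 64.9 CPM. The 4-day and 11-day libraries lay above the saline libraries. Its value at 8 days was 0.12 ± 0.11, and -0.03 without 8-day A. That at 4 days was 0.31 ± 0.09, which did not pass (edgeR adjusted p = 0.06). Without 4-day C it was 0.37 (edgeR adjusted p = 0.0215), and DESeq2 called it (adjusted p = 0.0339).

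The ratio of Slc25a4 to Slc25a5 in FPKM was 17.0 ± 2.2 in saline (SD, n = 4) and 10.7 ± 1.69 at 4 days. It was 13.3 ± 2.5 at 8 days and 15.9 ± 0.706 at 11 days. Every 4-day library, at 9.29, 13.1, 10.8 and 9.73, lay below every saline library, at 19.3, 15.7, 14.5 and 18.4. The difference at 4 days was -0.66 on the log2 scale, with a two-sided exact permutation p = 0.0286, the smallest that 4 against 4 libraries allow, and 0.0571 adjusted over 6 tests. At 8 and 11 days the differences were -0.36 and -0.09 (exact permutation p = 0.143 and 0.4).

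The ratio was also taken for the aspartate-glutamate carriers. The ratio of Slc25a12 to Slc25a13 was 1.26 ± 0.0751 in saline, 1.03 ± 0.0631 at 4 days, 1.08 ± 0.0541 at 8 days and 1.1 ± 0.109 at 11 days. The 4-day and 8-day libraries lay below the saline libraries (exact permutation p = 0.0286 for each, 0.0571 adjusted over 6 tests). Both ratios were chosen with the values of these genes known, and neither passed after adjustment.

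**Figure D4:**
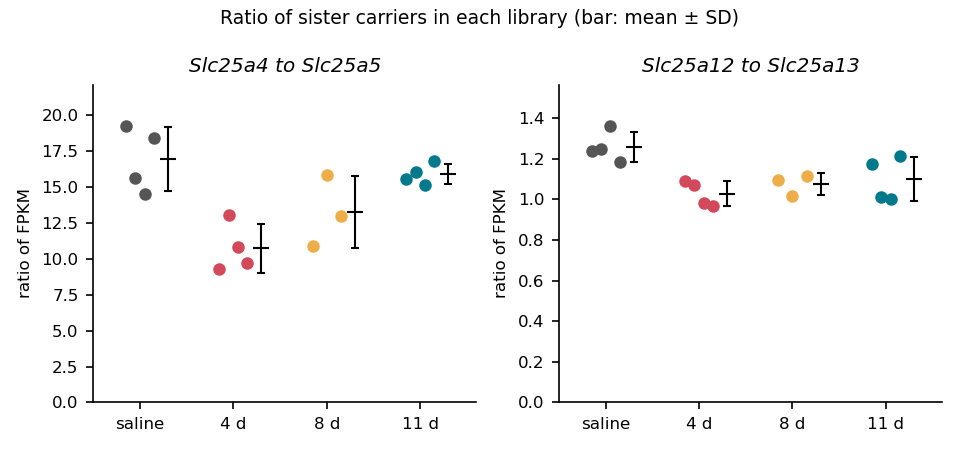
Ratio of the FPKM of Slc25a4 to Slc25a5 (left) and of Slc25a12 to Slc25a13 (right) in every library, with the mean and SD of each group as a bar. The 4-day libraries lie at 9.29 to 13.1 on the left, below the saline libraries at 14.5 to 19.3.

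Slc25a3 measured 429, 362, 424 and 491 CPM in saline A to D and 384, 442, 350 and 444 CPM in 4-day A to D. At 8 days it stood at 355, 413 and 377 CPM and at 11 days at 438, 431, 410 and 426 CPM. All groups overlapped saline, and its values were -0.07 ± 0.11, -0.17 ± 0.11 and -0.01 ± 0.09 (edgeR adjusted p = 0.787, 0.595 and 0.984). Slc25a31, the ADP/ATP carrier of male germ cells, had a group mean of 0.233 CPM in saline.

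Slc25a3 has a pair of mutually exclusive coding exons, of which the upstream one is known as the form of heart and skeletal muscle. They are shown because the heart's choice between them can be read from the deposited transcript counts. Both are given on the minus strand of GRCm38, 5′ to 3′, from GENCODE M21, that of Slc25a3-206 at chr10:91122207-91122331 and that of Slc25a3-201 at chr10:91121922-91122043. Capitals mark bases that differ from, or have no partner in, the other exon. In a global alignment the exons shared 84 bases over 128 columns, an identity of 65.6%.
Slc25a3-206: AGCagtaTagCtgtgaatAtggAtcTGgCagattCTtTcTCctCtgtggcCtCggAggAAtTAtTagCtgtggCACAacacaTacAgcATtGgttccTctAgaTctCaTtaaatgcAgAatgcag
Slc25a3-201: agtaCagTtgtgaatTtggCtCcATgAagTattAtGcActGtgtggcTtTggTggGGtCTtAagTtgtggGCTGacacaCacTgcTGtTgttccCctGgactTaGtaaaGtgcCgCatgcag

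Slc25a3-206 took 88.5 ± 0.704% of the gene's counts in saline, 87.9 ± 0.574% at 4 days, 88.9 ± 0.872% at 8 days and 88.0 ± 0.183% at 11 days. Slc25a3-201 took 6.22 ± 0.986%, 7.39 ± 1.02%, 5.96 ± 1.8% and 7.8 ± 0.203% in the same order. The heart's form thus made up most of the counts in every group, and the differences between group means were under 2 percentage points. RSEM estimated how the reads divide between transcripts, so the shares are a description.

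Tested as transcripts, 1 transcript of the family was called by edgeR. Slc25a34-201 was lower at 4 days by -0.98 ± 0.13 (adjusted p = 0.0391), where 0.171% of all transcripts were called, and 0 were called at 8 and 11 days, where 0.00858% and 0.0438% were. The share of counts assigned to a transcript moved most in Slc25a21, Slc25a51, Slc25a2, Slc25a14 and Slc25a22. In Slc25a21, with 13 counts over all libraries, and Slc25a2, with 167, the shifts rest on few counts. These shifts stood beside wide spreads, as in Slc25a51-201, which took 27.9 ± 13.2% of the gene's counts in saline and 70.2 ± 41.5% at 8 days. In Slc25a22, Slc25a22-203 took 52.8 ± 11.3% in saline, 54.0 ± 5.4% at 4 days, 30.0 ± 26.5% at 8 days and 36.0 ± 9.94% at 11 days.

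Slc25a37, the mitoferrin that supplies iron to mitochondria, was looked at after its values were seen. Slc25a37-203, annotated as a retained intron, took 69.3 ± 7.1% of its counts in saline, 87.6 ± 2.8% at 4 days, 82.4 ± 0.402% at 8 days and 75.9 ± 3.0% at 11 days. The 4-day and 8-day libraries lay at 81.9 to 91.3%, above the saline libraries at 58.8 to 74.3%. How often shares do not overlap was not counted over all transcripts. The protein-coding Slc25a37-201 took 27.8 ± 8.56%, 11.9 ± 2.5%, 14.95 ± 2.75% and 22.6 ± 4.67%. At 4 days the level of Slc25a37-203 changed by 0.32 ± 0.12 and that of Slc25a37-201 by -1.29 ± 0.35. As transcripts, neither was called (edgeR adjusted p = 0.468 and 0.235). The 10 erythroid and blood markers had medians of -1.21 at 4 days and -1.1 at 8 days, and their part in these shares was not tested. The level of the gene as a whole was not called, with -0.06 ± 0.12, -0.08 ± 0.14 and -0.16 ± 0.12, and neither was that of Slc25a28, the other mitoferrin.

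The ATP-Mg/phosphate carriers, which are opened by calcium and set the adenine nucleotide content of the matrix, included 1 call against saline. Slc25a24 was higher at 4 days by 0.55 ± 0.14 (edgeR adjusted p = 0.0211). It ran from 2.83 to 4.03 CPM in saline and from 4.06 to 5.52 CPM at 4 days, with no overlap. Leaving out saline A, saline C, saline D, 4-day A or 4-day C ended the call (edgeR adjusted p = 0.0537 to 0.0939). Slc25a25 changed over the 4 groups (F test of edgeR, adjusted p = 0.0269) with -0.35 ± 0.18, -0.69 ± 0.20 and -0.64 ± 0.17 against saline, none of them called by edgeR (adjusted p = 0.272, 0.108 and 0.0574). DESeq2 called it at 8 and 11 days (adjusted p = 0.0435 and 0.0114) and limma voom at 11 days (adjusted p = 0.0491). Slc25a23 was not called by edgeR.

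Of the di- and tricarboxylate carriers, Slc25a1, the citrate carrier, was higher at 4 days by 0.56 ± 0.16 (edgeR adjusted p = 0.0396). It measured 1.39 to 1.77 CPM in saline and 1.9 to 2.64 CPM at 4 days. The call was lost without saline A, B or C or 4-day A, C or D (edgeR adjusted p = 0.0544 to 0.151). Effective lengths as offsets (edgeR adjusted p = 0.23) and the replicate letter as a block (0.0841) ended it too. Slc25a11 measured 178, 136, 153 and 180 CPM in saline A to D and 151, 175, 144 and 178 CPM in 4-day A to D. At 8 days it measured 155, 163 and 153 CPM and at 11 days 173, 172, 163 and 163 CPM. Its groups overlapped saline at each time, with values of 0.00 ± 0.11, -0.05 ± 0.11 and 0.04 ± 0.09, and Slc25a10, the dicarboxylate carrier, and Slc25a21 were not called either. Slc25a11 shared 8.92% of its exon bases with Rnf167 on the opposite strand.

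Of the carriers related to uncoupling proteins, Slc25a30 was higher at 4 days by 0.34 ± 0.10, just inside the threshold (edgeR adjusted p = 0.0492). The call was lost without any library except 4-day B (edgeR adjusted p = 0.0652 to 0.193), and with effective lengths as offsets its value was 0.02. Size factors of DESeq2 (edgeR adjusted p = 0.0538), robust dispersions (0.0532) and the replicate letter as a block (0.11) ended the call too. It was also lost with no filter beyond a sum above 0 (edgeR adjusted p = 0.0705). Slc25a14 and Slc25a27 were not called.

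Markers of other cells moved at 4 days beside the members that rose then, Slc25a24, Slc25a1 and Slc25a30. Of 10 fibroblast markers 9 were higher and 1 lower at 4 days, and their sum ran from 774 to 958 CPM in saline and from 1530 to 4548 CPM at 4 days. Of 10 macrophage markers 9 were higher, with sums of 116 to 188 CPM in saline and 225 to 375 CPM at 4 days. Of 10 proliferation markers 9 were higher and 1 lower, with sums of 48.1 to 99.3 CPM and 56.4 to 109 CPM. No marker of these lists was at 0 throughout, and their part in the values of these members was not tested. Of 10 endothelial markers 0 were called by edgeR, and of 10 smooth muscle and pericyte markers 1 was higher and 2 lower. Of all genes 6.04% were called higher and 3.41% lower at 4 days.

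The members were also compared directly between times. Between 4 and 11 days 6 members were higher at 11 days and 2 lower, where 3.75% of all genes were called higher and 6.55% lower (10.3% in all). Among genes passing filterByExpr 6 of 42 members were higher and 3 lower, beside 5.72% and 10.2% of all. Groups did not overlap in 9 members higher and 3 lower, beside 7.21% and 7.15% of all genes. Slc25a4 was higher at 11 days than at 4 days by 0.42 ± 0.11 (edgeR adjusted p = 0.032), with 4-day B within the range of the 11-day libraries. This call was lost without 4-day A, C or D or 11-day A, B or D (edgeR adjusted p = 0.062 to 0.11). Slc25a26 was higher by 0.42 ± 0.11 (edgeR adjusted p = 0.0219) and lay at 4.39 to 5.47 CPM at 4 days and 5.54 to 7.43 CPM at 11 days, a range that overlapped saline. Its call was lost without 4-day A or C or 11-day A or B (edgeR adjusted p = 0.054 to 0.0832). It was also lost with library size as the only scaling (edgeR adjusted p = 0.0973) and with effective lengths as offsets (0.0565).

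Slc25a38 was higher at 11 than at 4 days by 0.47 ± 0.09 (edgeR adjusted p = 0.0057) and Slc25a32 by 0.37 ± 0.08 (edgeR adjusted p = 0.0131), and both calls held without each library but were lost with library size as the only scaling (edgeR adjusted p = 0.0534 and 0.0689), and that of Slc25a32 with effective lengths as offsets too (0.148). Slc25a36 was higher by 0.23 ± 0.07 (edgeR adjusted p = 0.0424), a call that was lost without 4-day A or C or 11-day B, C or D (edgeR adjusted p = 0.067 to 0.128), and its value was 0.09 with library size as the only scaling. With effective lengths as offsets the call of Slc25a36 was lost too (edgeR adjusted p = 0.489). Library size without the genes of the mitochondrial genome ended it as well (edgeR adjusted p = 0.233). So did a fit of all groups (edgeR adjusted p = 0.0975) and the replicate letter as a block (0.0713). Slc25a24 was lower at 11 days by -0.58 ± 0.13 (edgeR adjusted p = 0.012) and its 11-day range, 2.78 to 3.81 CPM, overlapped that of saline. Between these times 6 of 10 fibroblast, 8 of 10 macrophage and 9 of 10 proliferation markers were called lower at 11 days and 1, 0 and 0 higher, and their part in this value was not tested. Slc25a17 was lower by -0.35 ± 0.10 (edgeR adjusted p = 0.0308), a call that was lost without any of the libraries except 4-day B (edgeR adjusted p = 0.052 to 0.133). Effective lengths as offsets (edgeR adjusted p = 0.204) and the replicate letter as a block (0.0634) ended it too.

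Between 4 and 8 days and between 8 and 11 days edgeR called 0 members, where 0.249% (0.0596% higher and 0.19% lower) and 0.138% (0.0596% higher and 0.0782% lower) of all genes were called. Groups did not overlap in 4 members higher and 1 lower at 8 against 4 days, beside 4.69% and 5.93% of all genes, and in 2 higher and 2 lower at 11 against 8 days, beside 6.44% and 5.11%. Unadjusted p under 0.05 were found for 5 members higher and 1 lower at 8 against 4 days, and for 4 higher and 1 lower at 11 against 8 days, where 11.5% and 11.2% of all genes had such a p in either direction. DESeq2 called 0 and 1 members in these comparisons and limma voom 0 in both. Over the 4 groups 12 members changed by edgeR's F test, where 13% of all genes did. They were Slc25a4, Slc25a16, Slc25a17, Slc25a20, Slc25a22, Slc25a24, Slc25a25, Slc25a26, Slc25a32, Slc25a34, Slc25a38 and Slc25a42.

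**Figure D5:**
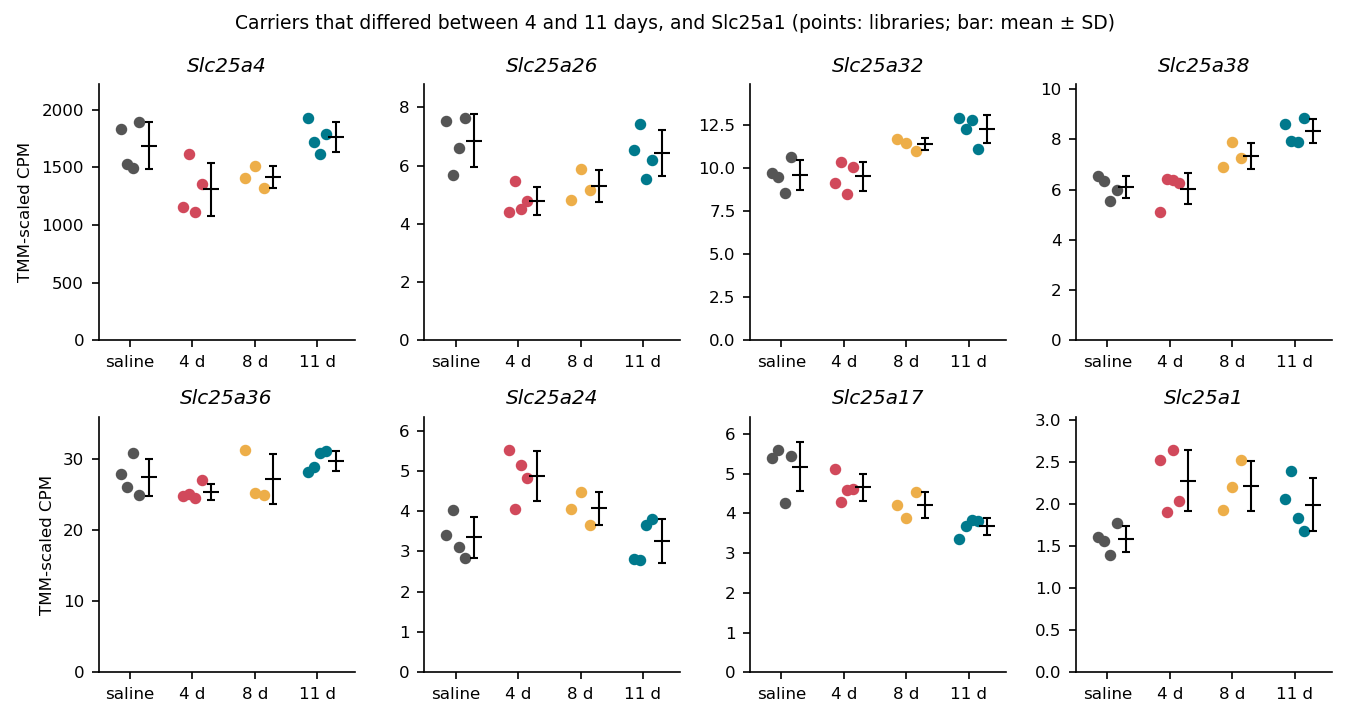
TMM-scaled CPM in every library, with the mean and SD of each group as a bar, of 7 of the 8 members that differed between 4 and 11 days, and of Slc25a1 (Slc25a34, the other member, is in the plot of lower members). Slc25a4 and Slc25a26 are lowest at 4 days and near saline at 11 days, Slc25a32 and Slc25a38 are highest at 11 days, Slc25a24 is highest at 4 days, and Slc25a17 is lowest at 11 days.

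In all, 29 members were called by edgeR in no comparison. Some of them were called by another tool, as Slc25a5 was at 4 days by DESeq2, Slc25a47 at 4 days by limma voom (adjusted p = 0.0487), and Slc25a23, Slc25a29, Slc25a40 and Slc25a47 between 4 and 11 days by DESeq2 (adjusted p = 0.03, 0.0396, 0.0453 and 0.0494). Other settings of edgeR called some too. Slc25a5 was called at 4 days with robust dispersions (edgeR adjusted p = 0.0463). Slc25a23 was called between 4 and 11 days with effective lengths as offsets (edgeR adjusted p = 0.0301). The log2 values of the 29 members ran from -0.61 to 0.52 at 4 days, from -0.41 to 0.86 at 8 days and from -0.37 to 0.54 at 11 days. They include Slc25a3, Slc25a5, Slc25a11, Slc25a12, Slc25a13 and Slc25a39, which are among the 9 members with the highest FPKM. Genes called in no comparison were not counted over all genes, so the 29 describe the members alone.

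Other genes that serve the carriers were read from lists, and their calls stand beside the shares of all genes given above for each time. Of 4 tested family members with other symbols, Ucp3, an uncoupling protein of muscle, was lower by -1.98 ± 0.26 at 4 days, -1.62 ± 0.36 at 8 days and -1.94 ± 0.27 at 11 days (edgeR adjusted p = 0.000644, 0.0327 and 0.00156). Ucp2, an uncoupling protein of many tissues, was lower at 11 days by -0.91 ± 0.14 (edgeR adjusted p = 0.00336). Mtch1, an outer membrane protein of the family, was higher at 4 days by 0.25 ± 0.07, and Mtch2 was not called, with values of -0.25 ± 0.09, -0.27 ± 0.10 and -0.02 ± 0.08.

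Of 16 genes for the import of carriers, edgeR called 0 against saline at 4 and 11 days and 1 at 8 days, Timm8a1, a small chaperone between the membranes, which was lower by -0.78 ± 0.15 (edgeR adjusted p = 0.0118). Of 17 tested ATP synthase genes 1 was called against saline, Atpif1, the inhibitor of the enzyme, which was higher at 4 days by 0.55 ± 0.16. Of 8 genes of the calcium uniporter 1 was called against saline, Mcub, its dominant-negative subunit, which was higher at 4 days by 0.89 ± 0.25. Of 15 other membrane transport genes, Tspo, a cholesterol-binding protein of the outer membrane, was higher at all times (1.44 ± 0.19, 0.82 ± 0.19 and 0.56 ± 0.14), Abcb8, an inner membrane transporter, was lower at 4 and 11 days (-0.39 ± 0.10 and -0.36 ± 0.09), and Letm1, a cation exchanger, was lower at 11 days (-0.27 ± 0.07). Of 14 nuclear regulators of mitochondrial genes 1 was called against saline, Ppargc1b, a coactivator, which was lower at 4 and 11 days (-0.36 ± 0.09 and -0.67 ± 0.12).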

How the data were processed

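Total RNA from ventricular tissue of 15 hearts was sequenced. Per the submitters' processing notes, the tools were cutadapt 4.1, HISAT2 2.2.1 and RSEM 1.3.3 and the build GRCm38.p6. Expected counts of genes and of transcripts, as RSEM estimates them and without normalization, were deposited. The authors deposited FPKM as well, made by RSEM from the counts, the effective length and the total of the library. The deposited effective lengths served as offsets in 1 alternative only. For the RSEM counts the sources used here give neither the annotation release nor the strand setting. Positions came from GENCODE M21, in which 14 members share exon bases with another gene, and promoters from RefSeq.

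Expected counts were rounded, genes with a sum of at least 10 were kept, and counts were scaled by TMM. Pairs of groups were fitted in edgeR 4.0.16 under R 4.3.3 (quasi-likelihood F test), and p-values were adjusted by Benjamini-Hochberg over all 26862 genes, with a threshold of 0.05. The SE is the size of the fold change divided by the square root of F. Unless another setting is named, a call by edgeR comes from these settings. Transcripts were tested the same way. Ratios were compared by exact permutation tests on the log2 scale. Scripts were tested on simulated data. Alternatives used other scalings, filters, lengths and dispersions, a fit of all groups, DESeq2 1.42.0, limma 3.58.1 (voom), the replicate letter as a block and each library left out. The methods give several mice a group and replicate hearts but do not tie each library to 1 mouse, so p-values measure the spread between these samples. Libraries held 25.4M to 117.8M counts, but some members had few, as Slc25a1 with a mean of 64.7 counts at 8 days. Counting error was not separated from the spread between hearts, and the 3 or 4 hearts a group limit the precision.

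Members and lists were chosen with earlier results of these data known. Values in every library are given for members called at 2 or more times and for the 5 with the highest FPKM in saline, other called members get their change, and up to 4 genes are named from each list. 1 member is counted in all totals but is not reported here by name and is left out of the plots.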

Additional observations from a re-analysis of the deposited data

Results flagged for a closer look

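A library stood apart from the other 3 of its group, by Dixon's criterion on CPM, in 11 of 132 groups of 4 tested, where chance gives about 1 in 20, or 6.6. In saline, Slc25a10 measured 4.32 CPM in C (3.08 to 3.28 in the others), Slc25a16 measured 10.8 CPM in B (13.3 to 13.6), Slc25a17 measured 4.26 CPM in C (5.4 to 5.59), and Slc25a30 measured 4.1 CPM in A (4.41 to 4.47). At 4 days, Slc25a21 measured 0.0279 CPM in C and 0 in the others, Slc25a38 measured 5.1 CPM in A (6.25 to 6.42), Slc25a40 measured 6.15 CPM in D (5.22 to 5.38), and Slc25a45 measured 1.54 CPM in B (2.11 to 2.19). At 11 days, Slc25a5 measured 75.7 CPM in A (64.9 to 65.2), Slc25a22 measured 6.74 CPM in D (4.48 to 4.74), and Slc25a23 measured 12.5 CPM in B (14.4 to 14.8).

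The direct test between 4 and 11 days found 8 members whose levels at these times differed (log2, edgeR). Higher at 11 days were Slc25a38 (0.47), Slc25a34 (0.46), Slc25a4 (0.42), Slc25a26 (0.42), Slc25a32 (0.37) and Slc25a36 (0.23). Lower at 11 days were Slc25a24 (-0.58) and Slc25a17 (-0.35).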

How the results depend on the processing

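Of the 26 member calls, 8 held in every alternative and without each library (Slc25a34 in all 4 of its comparisons, Slc25a42 at 4 and 11 days, Slc25a20 at 4 days and Slc25a24 between 4 and 11 days). Of 752 values under alternatives 633 stayed on the same side of the threshold, 102 lost it, 17 gained it and 0 were labelled reversed. A value that was not called could change its sign and still count as the same. Slc25a5 at 8 days did so, with 0.12 in the main fit and -0.03 without 8-day A. The cause of these shifts was not tested. Shares in brackets are of all genes under the same setting. With library size as the only scaling, which moved the median of all genes at 4 days from 0.01 to 0.21 on the log2 scale, 5 members were higher (9.43%) and 3 lower (1.09%) at 4 days, 2 higher (1.18%) and 4 lower (8.93%) at 11 against 4 days, and 6 changed over the 4 groups (8.7%). With library size without the genes of the mitochondrial genome, 4 were lower at 11 against 4 days (8.96%) and 6 changed over the 4 groups (8.1%). With effective lengths as offsets, 1 was higher at 4 days (4.6%), 0 higher (1.07%) and 2 lower (1.3%) at 11 days, 3 higher at 11 against 4 days (2.43%), and 5 changed over the 4 groups (8.96%). Robust dispersions and DESeq2 each called 4 members lower at 11 against 4 days (6.53% and 6.88%), and DESeq2 called 1 higher at 11 against 8 days (0.702%).

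The deviations of libraries with the same letter correlated at -0.29 to 0.29, so the letters were not taken as pairs. With the letter as a replicate block, 1 member was higher (5.03%) and 6 were lower (2.71%) at 4 days, 5 were lower at 8 days (1.34%), 1 higher (1.89%) and 6 lower (2.24%) at 11 days, 5 higher (3.41%) and 1 lower (6.31%) at 11 against 4 days, and 11 changed over the 4 groups (10.7%).

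Without each library in turn, members called higher and lower ranged from 0 to 4 (3.31 to 7.16%) and from 3 to 8 (1.85 to 4.49%) at 4 days, lower from 1 to 4 at 8 days (0.488 to 1.8%), higher from 1 to 2 (0.86 to 2.51%) and lower from 2 to 5 (0.998 to 2.78%) at 11 days, higher from 3 to 10 (1.65 to 6.17%) and lower from 1 to 4 (3.7 to 8.4%) at 11 against 4 days, and from 9 to 13 over the 4 groups (8.18 to 14.5%). The 0 higher at 4 days came without saline A, saline C or 4-day A, and the 10 higher at 11 against 4 days without 4-day B, where 6.17% of all genes were higher. The log2 difference of the Slc25a4 to Slc25a5 ratio ranged from -0.76 to -0.60 at 4 days, from -0.50 to -0.23 at 8 days and from -0.16 to -0.02 at 11 days. Slc25a21, with 13 counts in all, holds too few counts for a change to be detectable.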
